A study of Rattus norvegicus and Mus musculus and Macaca mulatta with 84 samples.

Results

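Collagen genes were read in polyadenylated RNA from livers of diabetic rats and of mice given an inhibitor of the microRNA miR-29. They were taken by name, as every gene whose symbol has the form of a collagen alpha chain (Col, a type number, a, a chain number). The choice of collagens as the set was made with earlier results of these data known. This gave 43 of 32754 genes in the rat table and 44 of 48440 in the mouse table. The rats were of the UCD-T2DM strain, bred as a model of type 2 diabetes that develops in obese, insulin-resistant adults. They stood at 4 stages: pre-diabetic (n = 5), and with a diabetic phenotype for 2 weeks (n = 4), 3 months (n = 5) or 6 months (n = 6). The mice were C57BL/6J, either labelled LNA29 treatment (n = 5) or control (n = 6); LNA-29 is a locked nucleic acid, a stabilised antisense strand, directed at miR-29. All rats were of one strain, and the pre-diabetic animals of that strain were the baseline, so no non-diabetic strain entered the comparison. The labels give no age, sex or diet, no dose or duration of LNA-29, and nothing on what the control mice received. Age and time with diabetes in the rats therefore cannot be told apart. The labels name separate animals for the rat libraries; for the mice nothing says so, and the p-values then rest on a spread that could be technical in part.

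Collagens are secreted as trimers of alpha chains wound into a triple helix. Fibrillar collagens, led by types I and III, pack into the banded fibres of connective tissue and of scar, while type IV collagens form the network of basement membranes. The remaining chains include the beaded filaments of type VI, the fibril-associated (FACIT) collagens that decorate fibres, and transmembrane forms. In liver, stellate cells and portal fibroblasts are the main source of fibrillar chains, and sinusoidal endothelium and stellate cells make type IV chains. The miR-29 family is known for repressing many collagen mRNAs through sites in their 3′ untranslated regions, and the question the mouse libraries address is which genes differ when it is inhibited.

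The members of the miR-29 family are shown because LNA-29 is directed at them. The mature rat sequences from RefSeq (GRCr8), written 5′ to 3′ with the seed (bases 2 to 8) in capitals, have the same seed in all 3:
miR-29a-3p: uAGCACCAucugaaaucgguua
miR-29b-3p: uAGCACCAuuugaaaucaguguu
miR-29c-3p: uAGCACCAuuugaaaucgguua
Sites for this seed in collagen 3′ untranslated regions were not analysed here.

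Col4a1 and Col4a2, the chains of the commonest type IV trimer, are described together below because they lie head to head. In RefSeq their annotated starts are 77 bases apart on opposite strands of rat chromosome 16. The 300 bases around the Col4a1 start (chr16:84885347-84885646, plus strand, GRCr8, from before the start into the first bases of the transcript) share 176 bases with the same window of Col4a2. Capitals mark 2 GC boxes (GGGCGG) and 2 CCAAT boxes (CCAAT), each searched on both strands; none overlapped another. The stretch shown is the whole Col4a1 window, and only its last 176 bases also lie in the Col4a2 window. The CCAAT match at base 81 is outside this shared part.
Col4a1 and Col4a2 shared promoter: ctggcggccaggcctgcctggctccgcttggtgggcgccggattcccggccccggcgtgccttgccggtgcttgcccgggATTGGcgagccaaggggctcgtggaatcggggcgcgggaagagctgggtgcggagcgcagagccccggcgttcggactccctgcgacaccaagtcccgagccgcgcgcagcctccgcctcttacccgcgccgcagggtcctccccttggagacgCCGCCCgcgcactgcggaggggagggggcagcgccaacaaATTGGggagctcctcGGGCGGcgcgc
Of 33469 rat promoter windows of this kind, 33.1% hold a GC box and 37.5% a CCAAT box, and 14.2% hold TATAAA, which is not in the window shown. Promoter windows were found for 34 of the 43 rat collagen genes. Col4a4 and Col4a3, also type IV chains, lie head to head as well, with starts 413 bases apart.

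A gene was tested where its mean over the table was at least 10 normalized counts, the authors' unit, which is a read count scaled to make libraries comparable. This left 26 of 43 rat collagen genes (7 of 11 fibrillar, 5 of 6 basement membrane and 14 of 26 others) and 27 of 44 mouse genes (9 of 11, 6 of 6 and 12 of 27). The 17 rat genes below the minimum had means of 0 to 9.59, the highest being Col5a3 (9.59) and Col24a1 (8.95), and Col2a1 was listed at 0 in every library. In mice the 17 below it had means of 0 to 9.51, the highest being Col7a1 (9.51) and Col23a1 (9.47), and Col26a1, Col2a1 and Col9a1 were listed at 0 in every library. Just above the minimum stood Col25a1 in rats (10.96) and Col24a1 in mice (10.79). Levels are not compared between genes, since the values are not scaled to gene length.

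In units of 1000000 normalized counts, the libraries summed to 37.6 to 49.9 in rats and 43.3 to 52.8 in mice. All 7 hepatocyte markers measured passed the minimum in each species; of them Ttr was called lower at 3 and 6 months of diabetes and Serpina1 higher at 6 months, and 0 were called with LNA-29. The adipocyte markers Lep and Plin1 and the pancreatic markers Pnlip, Prss1 and Prss2 were at 0 in every rat library. Other members of these lists were present, and 2 adipocyte markers (Cidec and Cfd) and 1 pancreatic marker (Cela1) passed the minimum. The adipocyte list summed to 2839 to 5146 normalized counts over the rat libraries and the pancreatic list to 101 to 430. Correlation of a library with the others of its group had medians of 0.960 to 0.981 in rats, lowest for pre-diabetic 2, and 0.981 to 0.987 in mice. Differences are given below as mean log2(normalized count + 1) of the first-named group minus that of its baseline ± SE, a scale that understates the change of low genes. They were tested with limma, with Benjamini-Hochberg adjustment over all genes of the table, and called at an adjusted p under 0.05.

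In rats with 3 months of diabetes, 9 of 26 tested collagen genes were higher than in pre-diabetic rats and none was lower, where 16.5% of all genes tested were called, 7.76% higher and 8.72% lower. The 9 were the type V fibril chains Col5a1 and Col5a2, the basement membrane chains Col4a1 and Col4a2, and the non-fibrillar chains Col6a6, Col8a1, Col12a1, Col14a1 and Col16a1. By class these were 2 of 7 fibrillar, 2 of 5 basement membrane and 5 of 14 other genes. At 6 months 7 of 26 were higher and 1 lower than in pre-diabetic rats, where 21.1% of all genes were called, 11.0% higher and 10.0% lower. They comprised 1 of 7 fibrillar genes, 0 of 5 basement membrane genes and 7 of 14 others. The median difference at 3 months was 0.26 for fibrillar, 0.38 for basement membrane and 0.54 for other collagens, beside 0.02 for all genes tested. At 6 months these medians were 0.21, 0.14 and 0.45, beside 0.007. All comparisons with pre-diabetic rats use the same 5 baseline libraries. In whole liver, more cells of a type and more RNA per cell cannot be told apart.

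**Figure D1:**
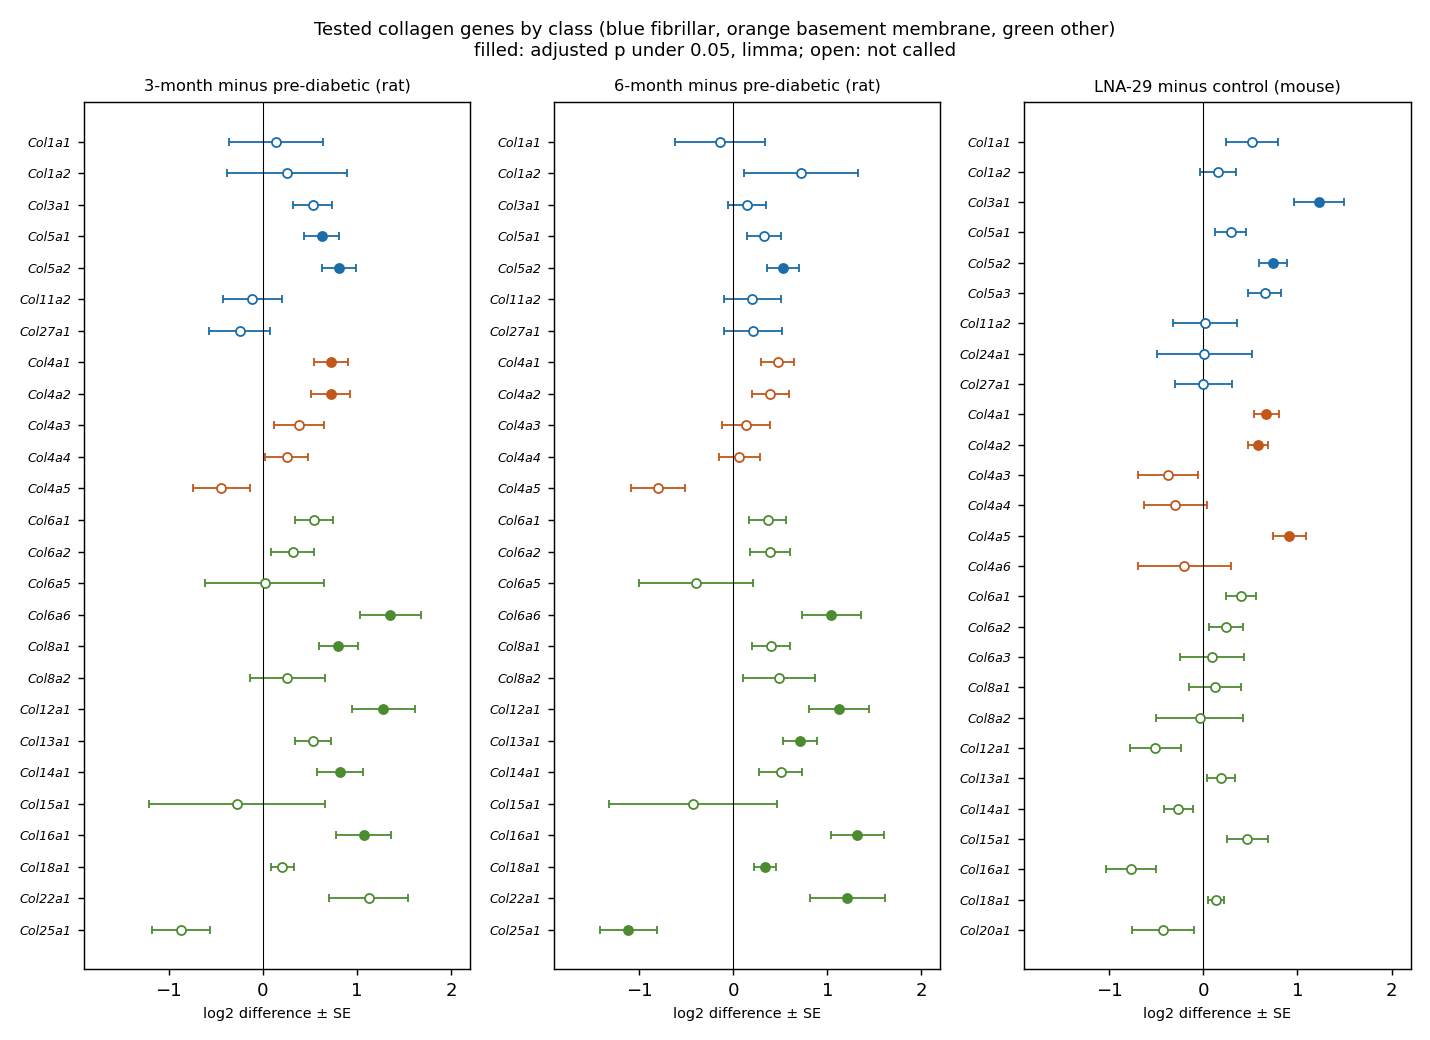
Log2 difference ± SE (horizontal axis) of every tested collagen gene for 3-month minus pre-diabetic rats, 6-month minus pre-diabetic rats and LNA-29 minus control mice; filled points passed an adjusted p of 0.05 (limma). Filled points lie right of 0 in all panels except Col25a1 at 6 months (-1.11), and Col1a1 and Col1a2 are open in each.

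At 2 weeks of diabetes no collagen gene was called by limma (0 of 26; 0% of all genes), and 4 had an unadjusted p under 0.05, as did 7.9% of all genes; all 4 were higher than in pre-diabetic rats. These 4 were Col5a2 (0.70 ± 0.19, adjusted p = 0.36), Col6a6 (1.04 ± 0.34, adjusted p = 0.474), Col5a1 (0.48 ± 0.20, adjusted p = 0.548) and Col3a1 (0.54 ± 0.22, adjusted p = 0.548). The class medians at 2 weeks were 0.50, 0.33 and 0.24 for fibrillar, basement membrane and other collagens, beside 0.021 for all genes. Without 2-week rat 2, 9 collagen genes and 7.35% of all genes had an unadjusted p under 0.05, and 0 collagen genes were called. Of the 26, Col5a2 and Col27a1 did not overlap between 2-week and pre-diabetic rats, where 3.73% of all genes did not.

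Of the 7 fibrillar genes tested, only Col5a1 and Col5a2, both chains of type V, were called against pre-diabetic rats; the third type V chain, Col5a3, was below the minimum. Type V collagen sits inside type I fibrils and sets their diameter. Col5a2 had 169, 156, 190.3, 128 and 226 in pre-diabetic livers, 336, 231, 254 and 307 at 2 weeks, 352, 327, 245, 389 and 222 at 3 months, and 192 to 313 with a median of 255 at 6 months. The lowest 3-month rat lay just below the highest pre-diabetic rat, so these groups overlapped by a single value, while the 2-week rats all lay above the pre-diabetic ones. Col5a2 rose at 3 months (0.81 ± 0.18, adjusted p = 0.00591) and at 6 months (0.53 ± 0.17, adjusted p = 0.0338). The 3-month call held whichever library was left out (0.71 to 0.92), but the 6-month call was lost when pre-diabetic 1, pre-diabetic 2, pre-diabetic 4, 6-month 1, 6-month 2 or 6-month 5 was left out (log2 differences 0.43 to 0.63 over single omissions, adjusted p up to 0.109).

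Its partner Col5a1 had 339.9, 227, 341, 277 and 507 in pre-diabetic livers, 628, 378, 387 and 465 at 2 weeks, 533, 468, 571, 528 and 428 at 3 months, and 288 to 458 with a median of 436 at 6 months. Pre-diabetic rat 5, the highest of its group, reached into the 3-month range, and the other 4 pre-diabetic rats lay below it. Col5a1 rose at 3 months (0.62 ± 0.19, adjusted p = 0.0266) and was not called at 6 months (0.33 ± 0.18, adjusted p = 0.201). The 3-month call was lost when pre-diabetic 2, pre-diabetic 4, 3-month 1 or 3-month 3 was left out (log2 differences 0.49 to 0.78 over single omissions, adjusted p up to 0.0711), and when the 2 groups were fitted alone.

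The chains of type I and type III collagen, the main fibres of scar, did not pass the test at any stage. Col1a1 had 152, 186, 325, 92.7 and 81.2 in pre-diabetic livers, 175, 90.8, 194 and 249 at 2 weeks, 73.4, 182, 103, 364 and 224 at 3 months, and 58.4 to 321 with a median of 160.4 at 6 months. Col1a2 had 268, 83.3, 267, 20.4 and 116 in pre-diabetic livers, 264, 138, 219 and 166 at 2 weeks, 351, 101, 37.5, 238 and 111 at 3 months, and 84.6 to 416 with a median of 159 at 6 months. Both genes spread widely inside every stage, and their groups overlapped almost entirely. The differences at 3 months were 0.14 ± 0.50 for Col1a1 and 0.26 ± 0.64 for Col1a2 (adjusted p = 0.874 and 0.814), and at 6 months -0.14 ± 0.48 and 0.72 ± 0.61 (adjusted p = 0.865 and 0.427). These standard errors, 0.50 and 0.64 at 3 months, mean that a difference of the size seen in Col5a2 was not detectable for the type I chains.

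Col3a1, whose product forms type III reticular fibres, had 2906, 2659, 2992, 1899 and 3061 in pre-diabetic livers, 5018, 2788, 3541 and 4506 at 2 weeks, 4472, 3462, 3463, 5291 and 2949.9 at 3 months, and 2261 to 4107 with a median of 2938 at 6 months. At 3 months 4 of 5 rats lay above all pre-diabetic rats, and at 6 months 3 of 6 rats lay above them and 3 within their range. The difference was 0.53 ± 0.21, adjusted p = 0.0877 at 3 months and 0.15 ± 0.20, adjusted p = 0.636 at 6 months, neither passing the test. The other tested fibrillar genes, Col11a2 and Col27a1, differed by -0.11 and -0.24 at 3 months and by 0.20 and 0.21 at 6 months, without a call.

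In the basement membrane class, the pair Col4a1 and Col4a2 moved together. Col4a1 had 1219, 1139, 1100.0, 899 and 1097 in pre-diabetic livers, 1586, 962, 1569 and 1451 at 2 weeks, 2408, 1770.0, 1572, 2195 and 1256 at 3 months, and 1163 to 2109 with a median of 1578 at 6 months. All 5 rats at 3 months lay above the highest pre-diabetic rat, and at 6 months 2 of 6 fell inside the pre-diabetic range. Col4a1 rose at 3 months (0.72 ± 0.18, adjusted p = 0.0126), a call kept in every omission of a single library (0.62 to 0.85). Col4a2 had 586, 391, 497, 426 and 569 in pre-diabetic livers, 721, 393, 709.6 and 709 at 2 weeks, 1001, 826, 643, 1013 and 627 at 3 months, and 443 to 918 with a median of 641 at 6 months. Its 3-month rats again lay wholly above the pre-diabetic ones, and 2-week rat 2 was as low as the lowest pre-diabetic rat. Col4a2 rose at 3 months (0.72 ± 0.21, adjusted p = 0.023), and that call was lost when pre-diabetic 2, pre-diabetic 4, 3-month 1 or 3-month 4 was left out (log2 differences 0.64 to 0.81 over single omissions, adjusted p up to 0.066).

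At 6 months neither chain passed the test: Col4a1 differed by 0.47 ± 0.18, adjusted p = 0.0619 and Col4a2 by 0.40 ± 0.20, adjusted p = 0.165. Col4a1 passed without 6-month rat 4 or 6-month rat 6 (adjusted p down to 0.0336) and when the 2 groups were fitted alone. The chains of the second type IV network, Col4a3, Col4a4 and Col4a5, known best from the kidney glomerulus, were not called. Col4a3 and Col4a4 differed by 0.38 and 0.25 at 3 months. Col4a5 lay the other way, at -0.44 ± 0.30 at 3 months and -0.79 ± 0.29, adjusted p = 0.0548 at 6 months.

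**Figure D2:**
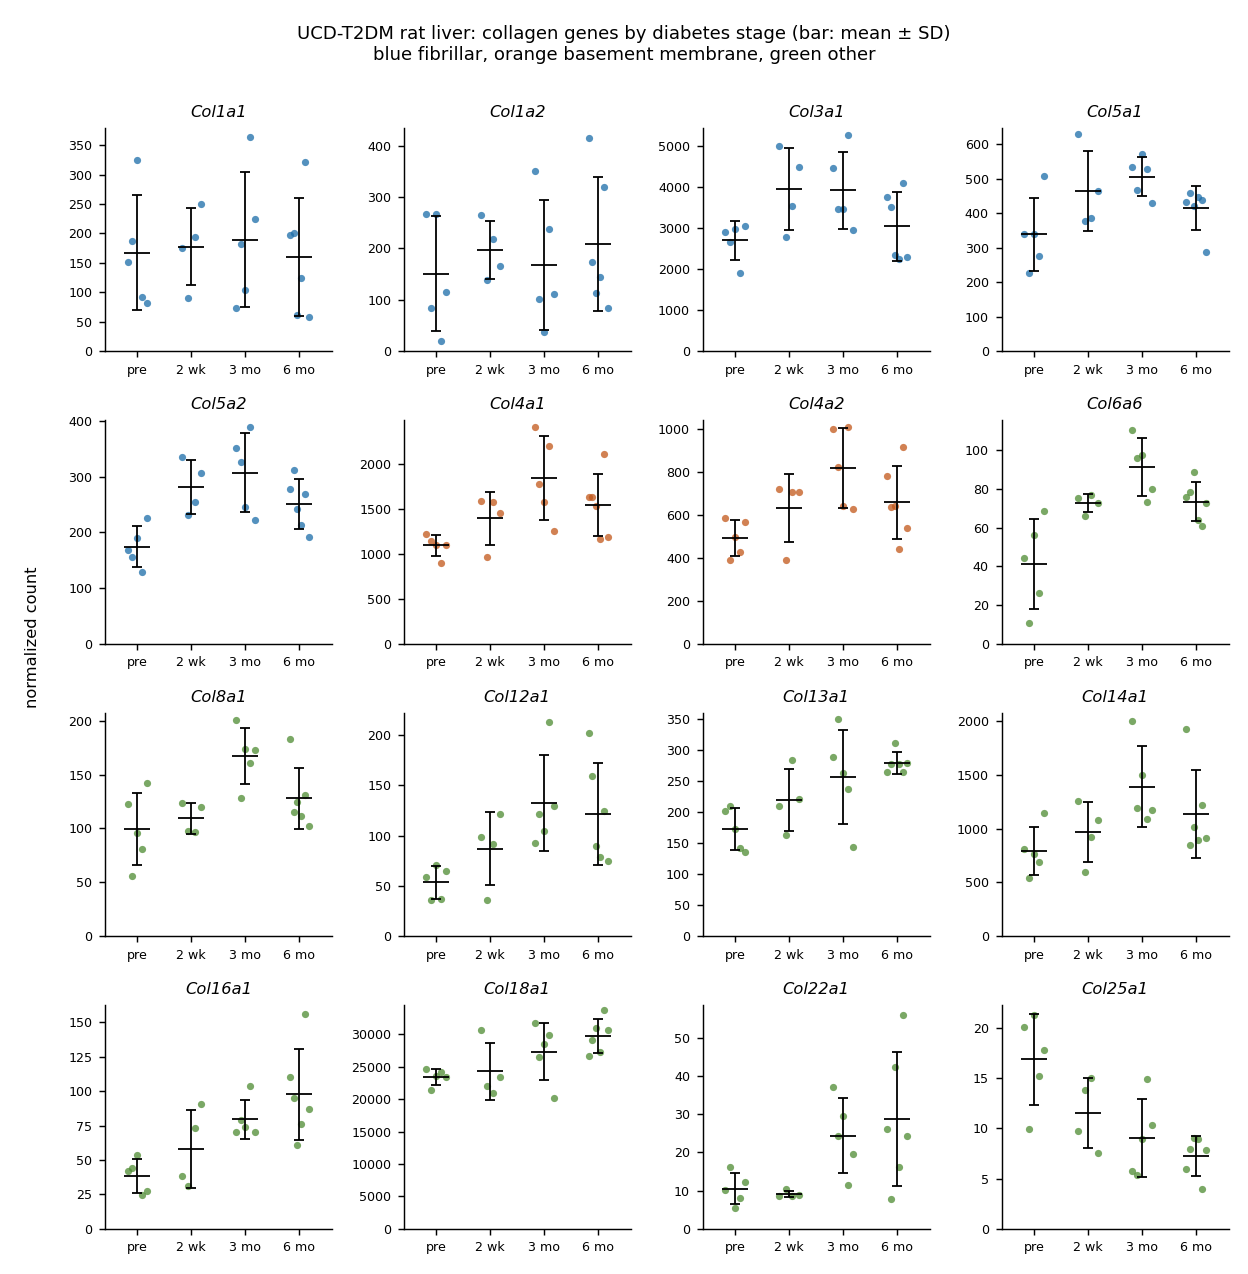
Normalized counts (vertical axes, from 0) per liver for 16 collagen genes at the 4 stages, points being rats and bars the mean ± SD (n = 5, 4, 5 and 6). The 3-month points of Col4a1, Col4a2, Col6a6, Col12a1 and Col16a1 lie wholly above the pre-diabetic ones, while those of Col1a1 and Col1a2 overlap between all stages.

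Among the other collagens, 4 FACIT genes were called. Col12a1, whose product coats fibrils in dense tissue, had 58.8, 35.8, 71.0, 37.3 and 64.7 in pre-diabetic livers, 98.9, 36.3, 91.6 and 121 at 2 weeks, 92.5, 121, 104, 213 and 129 at 3 months, and 74.9 to 202 with a median of 107 at 6 months. Each 3-month and each 6-month rat lay above the highest pre-diabetic rat. It rose at 3 months (1.28 ± 0.33, adjusted p = 0.0139), a call kept in every single omission (1.09 to 1.39), and at 6 months (1.12 ± 0.32, adjusted p = 0.0178). The 6-month call was lost when pre-diabetic 4 was left out (log2 differences 0.96 to 1.24 over single omissions, adjusted p up to 0.0547).

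Col16a1, a FACIT found near basement membranes, had 41.8, 44.4, 53.7, 24.5 and 27.7 in pre-diabetic livers, 38.2, 31.1, 73.5 and 90.5 at 2 weeks, 70.5, 79.1, 73.8, 104 and 70.2 at 3 months, and 61.1 to 156 with a median of 91.0 at 6 months. Neither late stage overlapped the pre-diabetic rats. Col16a1 rose at 3 months (1.07 ± 0.29, adjusted p = 0.0172) and at 6 months (1.32 ± 0.28, adjusted p = 0.00303), where the call was kept in all 11 omissions. At 3 months the call was lost when pre-diabetic 4 was left out (log2 differences 0.93 to 1.20 over single omissions, adjusted p up to 0.0519).

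Col14a1, another FACIT, had 813, 542, 768, 694 and 1142 in pre-diabetic livers, 1258, 602, 927 and 1079.6 at 2 weeks, 2005, 1190.4, 1497, 1089 and 1177 at 3 months, and 852 to 1931 with a median of 967 at 6 months. Pre-diabetic rat 5 lay inside the 3-month range, and the other pre-diabetic rats lay below it. Col14a1 rose at 3 months (0.82 ± 0.24, adjusted p = 0.0262) and was not called at 6 months (0.50 ± 0.23, adjusted p = 0.128). The 3-month call was lost when pre-diabetic 2, pre-diabetic 4, 3-month 1 or 3-month 3 was left out (log2 differences 0.68 to 0.96 over single omissions, adjusted p up to 0.0805).

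Col22a1, a FACIT described at tissue junctions, had 10.2, 16.3, 5.46, 8.18 and 12.3 in pre-diabetic livers, 8.68, 10.4, 8.64 and 8.90 at 2 weeks, 37.2, 24.3, 29.5, 11.4 and 19.6 at 3 months, and 7.84 to 56.0 with a median of 25.2 at 6 months. All 2-week rats lay within the pre-diabetic range, and both late stages overlapped it at their low ends. Col22a1 averaged 10.5 in pre-diabetic rats, 9.15 at 2 weeks, 24.4 at 3 months and 28.8 at 6 months. The first 2 means stand near the minimum of 10, so its place among the tested genes leans on the late groups, where it is high. Col22a1 rose at 6 months (1.21 ± 0.40, adjusted p = 0.0363), with 1.12 ± 0.42, adjusted p = 0.0695 at 3 months. The 6-month call was lost when pre-diabetic 1, pre-diabetic 3, pre-diabetic 4, pre-diabetic 5, 6-month 1, 6-month 3, 6-month 5 or 6-month 6 was left out (log2 differences 0.98 to 1.52 over single omissions, adjusted p up to 0.094); it was also lost with no filter on low values, in the fit with replicate number and in the fit of 2 groups.

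Col6a6 encodes a chain that can take the place of the third chain of type VI microfilaments. It had 44.3, 10.8, 56.5, 26.4 and 68.8 in pre-diabetic livers, 75.5, 66.1, 76.9 and 72.6 at 2 weeks, 111, 95.9, 97.8, 73.2 and 80.00 at 3 months, and 61.1 to 88.8 with a median of 74.2 at 6 months. All 3-month rats lay above all pre-diabetic rats, and 3 of 4 rats at 2 weeks did so too. Col6a6 rose at 3 months (1.35 ± 0.32, adjusted p = 0.00856), kept in all 10 omissions (0.95 to 1.59), and at 6 months (1.04 ± 0.31, adjusted p = 0.0221). The 6-month call was lost when pre-diabetic 4 was left out (log2 differences 0.64 to 1.28 over single omissions, adjusted p up to 0.0632), and both calls were lost in fits of the 2 groups alone. The more common type VI chains Col6a1 and Col6a2 differed by 0.54 ± 0.21, adjusted p = 0.0752 and 0.32 ± 0.22, adjusted p = 0.354 at 3 months, without a call. Col6a3, the third chain itself, was not listed among the rat collagen genes, so nothing can be said of it in rats.

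Col8a1, a short-chain collagen of vessel walls, had 123, 56.4, 95.6, 80.9 and 142 in pre-diabetic livers, 123, 97.3, 96.8 and 120.2 at 2 weeks, 200.1, 129, 173, 161 and 172 at 3 months, and 102 to 182 with a median of 120.0 at 6 months. Only 3-month rat 2 fell below the top of the pre-diabetic range. It rose at 3 months (0.80 ± 0.21, adjusted p = 0.0137), kept in all 10 omissions (0.61 to 0.94), and was not called at 6 months (0.40 ± 0.20, adjusted p = 0.157).

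Col13a1 and Col18a1 were called at 6 months and not at 3 months. Col13a1, a transmembrane collagen of cell contacts, had 202, 209.8, 173, 143 and 136 in pre-diabetic livers, 209.5, 164, 284 and 221 at 2 weeks, 288, 349, 263, 236 and 144 at 3 months, and 265 to 312 with a median of 277 at 6 months. The 6-month rats lay in a narrow band above all pre-diabetic rats, and Col13a1 rose (0.71 ± 0.18, adjusted p = 0.0106), a call kept in all 11 omissions (0.63 to 0.78). Col18a1, counted among the others here although it sits in basement membranes and gives rise to endostatin, had 24741, 21379, 23654, 24152 and 23398 in pre-diabetic livers, 30703, 22118, 20990.1 and 23480.2 at 2 weeks, 31709, 26466, 28577, 29866 and 20180.2 at 3 months, and 26726 to 33816 with a median of 29928 at 6 months. The 6-month rats did not overlap the pre-diabetic ones, yet the rise was small (0.34 ± 0.12, adjusted p = 0.0432) and was lost when pre-diabetic 1, pre-diabetic 2, pre-diabetic 3, pre-diabetic 4, pre-diabetic 5, 6-month 2, 6-month 3, 6-month 5 or 6-month 6 was left out (log2 differences 0.30 to 0.37 over single omissions, adjusted p up to 0.0953); it was lost as well with no filter on low values and in the fit with replicate number.

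Col25a1, a transmembrane collagen known from neurons, was the single collagen gene called lower. It had 20.1, 9.93, 21.2, 15.2 and 17.7 in pre-diabetic livers, 9.70, 13.8, 15.03 and 7.58 at 2 weeks, 5.79, 5.37, 8.90, 14.9 and 10.3 at 3 months, and 3.93 to 9.00 with a median of 7.89 at 6 months. All 6-month rats lay below the lowest pre-diabetic rat. Col25a1 fell at 6 months (-1.11 ± 0.30, adjusted p = 0.0132), kept in all 11 omissions (-1.28 to -0.97), with -0.87 ± 0.31, adjusted p = 0.0616 at 3 months. It averaged 16.8 ± 4.50 in pre-diabetic rats (SD, n = 5), 11.5 ± 3.49 at 2 weeks (n = 4), 9.04 ± 3.86 at 3 months (n = 5) and 7.25 ± 1.97 at 6 months (n = 6), so it passed the minimum of 10 through the pre-diabetic group, and a gene that passes this way is bound to be higher there. With no filter on low values the difference was -1.11, adjusted p = 0.0176. The genes never called among the others were Col6a1, Col6a2, Col6a5, Col8a2 and Col15a1, which differed by -0.43 to 0.49 at 6 months.

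One library of the baseline carried weight in these counts. Without pre-diabetic rat 4, 5 collagen genes were called at 3 months and 3 at 6 months, all of them among those named above: Col5a2, Col4a1, Col6a6, Col8a1 and Col12a1 at 3 months, and Col13a1, Col16a1 and Col25a1 at 6 months. Over all genes that omission left 1571 of 13662 called at 3 months and 1920 at 6 months. With every library 2248 and 2875 of 13640 were called, so calls were lost over all genes too. At 6 months the collagen count was also 5 without pre-diabetic rat 1 and 5 without 6-month rat 5, with 2454 and 2126 of all genes called. Of the 26 tested genes, 5 did not overlap between 3-month and pre-diabetic rats and 5 between 6-month and pre-diabetic rats, where 12.0% and 9.80% of all genes did not overlap.

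Between the diabetic stages no collagen gene was called. For 3 months against 2 weeks limma called 0 of 26 (2.35% of all genes, 1.15% higher and 1.20% lower), with 4 at an unadjusted p under 0.05 (18.4% of all genes); fitted on these 2 groups alone, it called Col27a1, a fibrillar chain, lower. For 6 months against 2 weeks it called 0 (8.82% of all genes, 4.66% higher and 4.16% lower), with 3 at an unadjusted p under 0.05 (26.4% of all genes). For 6 months against 3 months it called 0 (0.0147% of all genes), and 0 had an unadjusted p under 0.05 (7.76% of all genes). Groups did not overlap for 3 genes (Col27a1, Col22a1 and Col8a1) between 3 months and 2 weeks, 0 between 6 months and 2 weeks and 0 between 6 and 3 months, where 8.06%, 9.78% and 0.850% of all genes did not. The median difference between 6 and 3 months was -0.28 for fibrillar, -0.25 for basement membrane and -0.15 for other collagens, beside 0.009 for all genes tested. All 5 basement membrane genes had negative values, none with an unadjusted limma p under 0.05. Calls present at 3 months and absent at 6 months, as for Col4a1, are therefore not shown to differ between these stages.

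Of 26 tested genes that fold and process collagen, 6 rose and 0 fell at 3 months, where 16.5% of all genes were called. At 6 months 4 rose and 2 fell, a share near the 21.1% of all genes called. Pcolce, an enhancer of procollagen C-proteinase, averaged 1864 ± 1480.4 normalized counts at 3 months (SD, n = 5) and 164 ± 43.5 in pre-diabetic rats (n = 5) and rose (3.19, adjusted p = 0.00234); at 6 months it averaged 4705 ± 3331 (n = 6; 4.36, adjusted p = 9.12e-05). Fkbp10, a procollagen chaperone, rose (0.77, adjusted p = 0.0053 at 3 months and 0.70, adjusted p = 0.00546 at 6 months), as did the prolyl hydroxylase P3h2 (1.24, adjusted p = 0.00563 and 1.07, adjusted p = 0.00726). The prolyl hydroxylase subunit P4ha2 fell at 6 months (-0.44, adjusted p = 0.014), as did the cross-linking enzyme Lox (-2.50, adjusted p = 0.0427). Of 4 collagen receptors tested, Ddr1 rose at both stages (1.07, adjusted p = 0.00832 and 1.13, adjusted p = 0.00345).

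Marker lists of other liver cell types are set beside the collagens here, and their counts are to be read against the 16.5% of all genes called at 3 months and the 21.1% at 6 months. Of 11 stellate cell markers, 7 rose at 3 months and 8 at 6 months, led by Hgf (1.43, adjusted p = 2.54e-06 at 3 months) and Dcn (2.08, adjusted p = 0.00109). Their summed level was 12268 to 16341 normalized counts at 3 months and 10362 to 16155 at 6 months, against 7018 to 10605 in pre-diabetic rats, and all 11 passed the minimum. Of 6 Kupffer cell markers 5 rose at each stage, Cd163, Cd5l and Vsig4 among them, with sums of 11373 to 30737 and 13149 to 40499.9 against 8252 to 12701. The neutrophil markers S100a8 and S100a9 rose at both stages, with list sums of 159 to 2624 and 126 to 1522 against 32.3 to 90.0; Mpo and Elane were below the minimum.

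Of 5 myofibroblast markers, 1 was called, Timp1, which rose at 3 months (1.27, adjusted p = 0.017) and at 6 months (1.27, adjusted p = 0.0108), and Acta2 did not pass (0.44, adjusted p = 0.564 at 3 months). Their sums were 1012 to 2019 at 3 months and 743 to 1636 at 6 months, against 378 to 2044 in pre-diabetic rats. Of 6 portal fibroblast markers 0 were called at either stage, with sums of 2417 to 12956 and 2563 to 11304 against 4725 to 6376. Of 9 sinusoidal endothelial markers Lyve1 rose at both stages (0.44, adjusted p = 0.0196 and 0.39, adjusted p = 0.0233). Of 7 bile duct markers Krt19 rose at 3 months and 4 rose at 6 months, with sums of 981 to 3105 and 1411 to 2611 against 920.1 to 1657. The leukocyte gene Ptprc was the 1 called of 5 lymphocyte markers, higher at both stages. Of 2 tested adipocyte markers Cidec fell at both stages and Cfd rose at 6 months, the 1 tested mesothelial marker was not called, and Cela1, the 1 tested acinar marker, fell at 6 months. The counts of the myofibroblast, portal fibroblast, sinusoidal and lymphocyte lists are near or below the share over all genes. The part of all these markers in the collagen differences was not tested.

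In mice given LNA-29, 5 of 27 tested collagen genes were higher than in control mice and none was lower, where 2.43% of all genes were called, 1.57% higher and 0.863% lower. They were the fibrillar chains Col3a1 and Col5a2 (2 of 9) and the basement membrane chains Col4a1, Col4a2 and Col4a5 (3 of 6); 0 of 12 other collagens were called. The class medians were 0.29, 0.19 and 0.11 for fibrillar, basement membrane and other genes, beside 0.001 for all genes tested. The basement membrane median lies in a gap between Col4a6 (-0.20) and Col4a2 (0.58), with no gene near it. Groups did not overlap for 4 of 27 collagen genes, where 3.95% of all genes did not overlap. The targeted microRNA itself was not analysed here in these mice.

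Col3a1 had 531, 1035, 607, 646 and 1497 normalized counts in LNA-29 livers, against 259.6 to 515 with a median of 309 in control livers. Every LNA-29 mouse lay above every control, with mice 2 and 5 far above the other 3. Col3a1 rose (1.23 ± 0.27, adjusted p = 0.0358). The call was lost when LNA-29 2, LNA-29 3, LNA-29 4, LNA-29 5, control 1, control 4, control 5 or control 6 was left out (log2 differences 1.00 to 1.37 over single omissions, adjusted p up to 0.0743). Col5a2 had 149, 169, 151, 167 and 143 normalized counts in LNA-29 livers, against 69.4 to 137 with a median of 90.8 in control livers. These groups did not overlap either, the highest control standing close to the lowest LNA-29 mouse. Col5a2 rose (0.74 ± 0.15, adjusted p = 0.0261), and the call was lost when LNA-29 1, LNA-29 3, LNA-29 4, LNA-29 5, control 1 or control 3 was left out (log2 differences 0.66 to 0.85 over single omissions, adjusted p up to 0.0649).

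Col4a1 had 3617, 2841, 3581, 2975 and 4073 normalized counts in LNA-29 livers, against 1649 to 2894 with a median of 2115 in control livers. The highest control lay above the lowest LNA-29 mouse, and the other controls lay below all treated mice. Col4a1 rose (0.67 ± 0.13, adjusted p = 0.0256), and the call was lost when LNA-29 1, LNA-29 3, LNA-29 5 or control 3 was left out (log2 differences 0.59 to 0.76 over single omissions, adjusted p up to 0.0722). Col4a2 had 1997, 1731, 2150.0, 1962 and 2370.4 normalized counts in LNA-29 livers, against 1099 to 1693 with a median of 1338 in control livers. Here no control reached the treated range. Col4a2 rose (0.58 ± 0.11, adjusted p = 0.0188), and the call was lost when LNA-29 3 or LNA-29 5 was left out (log2 differences 0.52 to 0.64 over single omissions, adjusted p up to 0.0569).

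Col4a5, a chain of the second type IV network, had 210.0, 295, 356, 181 and 252 normalized counts in LNA-29 livers, against 108 to 162 with a median of 136 in control livers. All LNA-29 mice lay above all controls. It rose (0.91 ± 0.18, adjusted p = 0.0221), and the call was lost when LNA-29 3 or LNA-29 5 was left out (log2 differences 0.79 to 1.03 over single omissions, adjusted p up to 0.0578). Its usual partners in that network stood the other way without passing the test, Col4a3 at -0.37 ± 0.32, adjusted p = 0.555 and Col4a4 at -0.30 ± 0.34, adjusted p = 0.683. Col4a6, which can pair with Col4a5, had few counts (13.5, 26.4, 7.65, 3.50 and 3.77 in LNA-29 mice, and 4.75 to 20.1 with a median of 9.60 in controls) and differed by -0.20 ± 0.50.

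The type I chains were not called. Col1a1 had 259, 376, 141, 149.7 and 373 normalized counts in LNA-29 livers, against 126 to 227 with a median of 163 in control livers. Of the treated mice, 3 stood above every control and 2 lay within the control range. Col1a2 had 477, 622, 315, 393 and 681 normalized counts in LNA-29 livers, against 376 to 614 with a median of 402 in control livers. Treated mice lay below, within and above the control range. Col1a1 differed by 0.52 ± 0.28, adjusted p = 0.33 and Col1a2 by 0.15 ± 0.19, adjusted p = 0.719. Closest to a call was Col5a3, the third type V chain (0.65 ± 0.18, adjusted p = 0.0732), while Col5a1 differed by 0.29 ± 0.16, adjusted p = 0.357. Of the other collagens, Col16a1 (-0.76 ± 0.27, adjusted p = 0.14) and Col6a1 (0.40 ± 0.16, adjusted p = 0.186) had an unadjusted p under 0.05, and the remaining 10 did not. Over all genes 19.2% had an unadjusted limma p under 0.05, so these uncalled genes are no excess over that share.

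**Figure D3:**
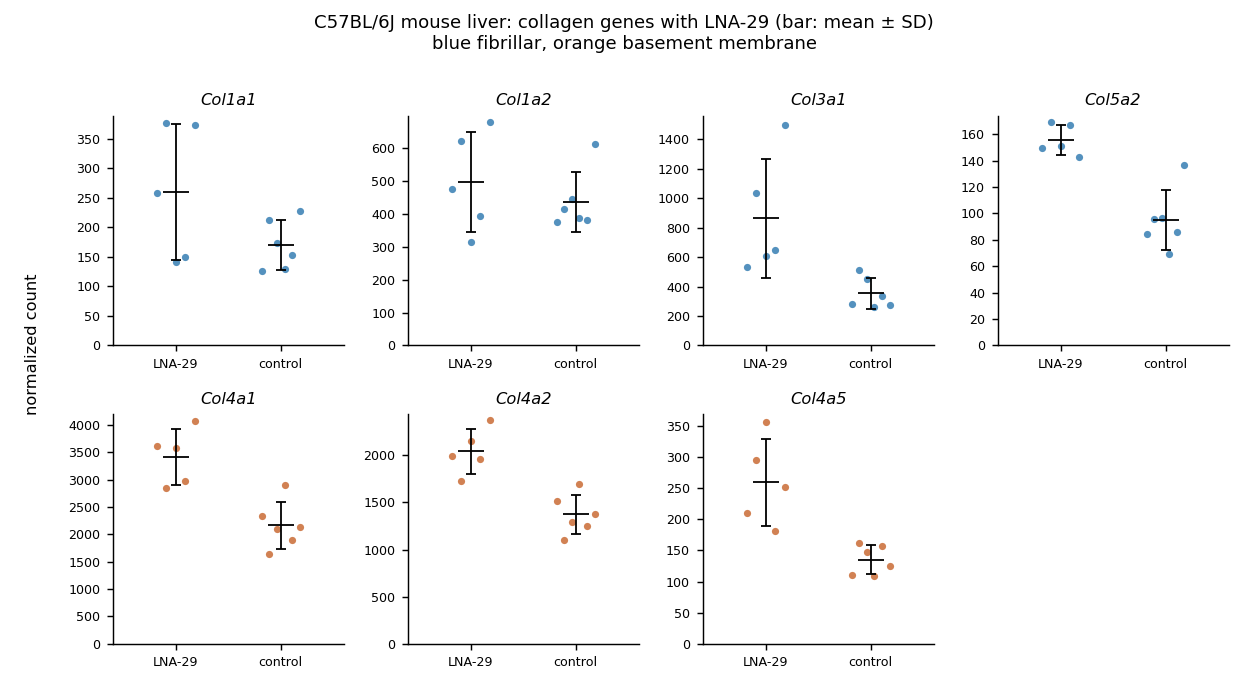
Normalized counts (vertical axes, from 0) per liver in LNA-29 mice (n = 5) and control mice (n = 6), points being mice and bars the mean ± SD. LNA-29 points lie wholly above control points for Col3a1, Col5a2, Col4a2 and Col4a5, and overlap them for Col1a1, Col1a2 and Col4a1.

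The mouse calls rested on few libraries. Without LNA-29 mouse 3 or without LNA-29 mouse 5 limma called 0 collagen genes, with 10 and 9 at an unadjusted p under 0.05 (15.5% and 15.6% of all genes). The count was 3 without LNA-29 mouse 1, LNA-29 mouse 4, control mouse 1 or control mouse 3. Calls over all genes fell as well. They numbered 355 with every library, and 120 and 124 without LNA-29 mouse 3 and mouse 5. Where 3 collagen genes were called, they numbered 144, 194, 165 and 164 in the order given. With each of the 11 libraries left out in turn, the 5 collagen genes kept a positive difference, the smallest being 0.52. In a fit without a variance trend the count of collagen genes called was 3. The median of the basement membrane genes was 0.64 without LNA-29 mouse 2, and that of the other collagens -0.19 without LNA-29 mouse 5. The 0.64 reflects a change of members. Col4a6 averaged 10.93 over all mice, with 26.4 in LNA-29 mouse 2, and fell below the minimum of 10 without that mouse.

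Of 30 folding and processing genes tested, 2 rose with LNA-29 and 0 fell, where 2.43% of all genes were called. P3h1, which hydroxylates prolines of collagen, averaged 996 ± 106 in LNA-29 mice (SD, n = 5) and 661 ± 80.5 in controls (n = 6; 0.59, adjusted p = 0.00861). The cross-linking enzyme Loxl2 also rose (0.69, adjusted p = 0.0332). None of 8 collagen receptors was called by limma; the first listed, Ddr1 and Ddr2, differed by 0.048 and 0.37. Of 12 stellate cell markers 0 were called, and their sums were 20708 to 25870.3 with LNA-29 and 21084 to 25743 in controls, ranges that overlap. Eln, which encodes elastin and is listed as a portal fibroblast marker, averaged 259 ± 57.8 with LNA-29 and 72.2 ± 13.4 in controls (1.82, adjusted p = 0.000202); the other 6 of that list were not called, and the list's sums overlapped (1378 to 2043 and 1104 to 1968). Clec4g was the only one of 10 sinusoidal markers called (0.47, adjusted p = 0.0121), and of 7 Kupffer, 6 bile duct, 5 myofibroblast, 5 lymphocyte, 4 mesothelial, 2 neutrophil, 1 adipocyte and 1 acinar markers 0 were called. The myofibroblast list had a median difference of 0.82, above the median of each collagen class. Its Acta2 averaged 162 ± 149 with LNA-29 and 60.4 ± 40.8 in controls (1.18, adjusted p = 0.278) and Myh11 239 ± 225 and 112 ± 77.8 (0.82, adjusted p = 0.442), and the list's sums overlapped (498 to 1742 with LNA-29 and 559 to 1087 in controls). The mesothelial list had a median difference of -1.09 and the lymphocyte list of 0.54. Mesothelial sums were 203 and 220 in LNA-29 mice 3 and 5, 20.3 to 41.3 in the other treated mice and 61.6 to 159 in controls. The part of these marker lists in the collagen differences was not tested.

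Of the collagen genes, 22 were tested in both species. The tables were normalized separately and share no libraries, and species and perturbation differ together, so values are set side by side with no test of the difference. Col4a1, Col4a2 and Col5a2 were called higher both at 3 months of diabetes and with LNA-29; they are 33.3% of the 9 rat calls, of which 8 were tested in mice, and 60.0% of the 5 mouse calls. At 6 months only Col5a2 was called higher in both, 14.3% of the 7 genes called higher in rats and 1 of the 5 mouse calls. The same shares over all genes were not computed, so whether this overlap is particular to collagens is not known. The differences of Col4a1, Col4a2 and Col5a2 were 0.72, 0.72 and 0.81 in 3-month rats and 0.67, 0.58 and 0.74 with LNA-29. The FACIT genes that rose in rats had negative, uncalled values with LNA-29: Col12a1 -0.51, Col14a1 -0.26 and Col16a1 -0.76. Col4a5 stood at -0.44 in 3-month rats and 0.91 with LNA-29, and Col3a1 at 0.53 and 1.23. Col6a6, Col22a1 and Col25a1, called in rats, were below the minimum in mice.

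**Figure D4:**
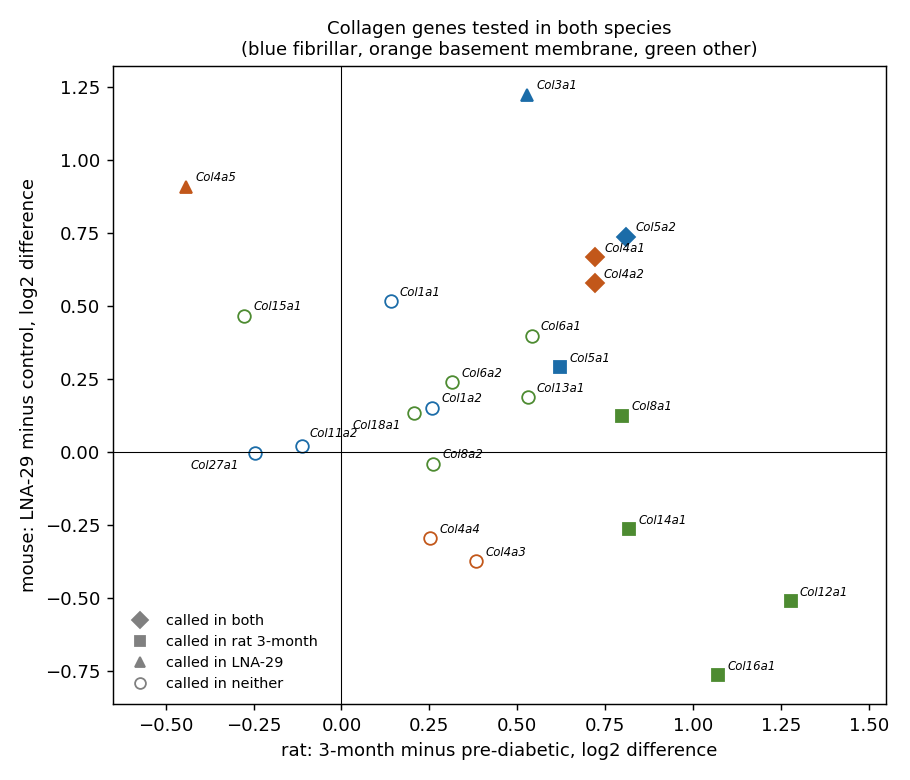
Log2 differences of the 22 collagen genes tested in both species, 3-month minus pre-diabetic rats (horizontal) and LNA-29 minus control mice (vertical); marker shape gives where a gene was called and colour its class. Col4a1, Col4a2 and Col5a2 lie at the upper right, Col12a1 and Col16a1 at the lower right, and Col4a5 at the upper left.

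Pairs of chains, 4 from a single collagen type and 2 across types, were compared library by library, as deviations from the group mean on the log2 scale, for 6 pairs in each species (12 permutation tests within groups, two-sided, adjusted together). Col4a1 and Col4a2 varied together in rats (n = 20), with Pearson r 0.90 (permutation p = 7e-05, adjusted p = 0.00042), Spearman rho 0.87 (permutation p = 0.00012, adjusted p = 0.00048), and r 0.87 without the 2 libraries farthest from the median. In mice (n = 11) they gave Pearson r 0.96 (permutation p = 0.00013, adjusted p = 0.00052), Spearman rho 0.95 (permutation p = 0.00011, adjusted p = 0.00048), and r 0.91 without the 2 libraries farthest from the median. Libraries high in one type IV chain were thus high in the other in both species. Col6a1 and Col6a2, partners in type VI collagen, gave Pearson r 0.95 (permutation p = 1e-05, adjusted p = 0.00012), Spearman rho 0.95 (permutation p = 1e-05, adjusted p = 0.00012), and r 0.93 without the 2 libraries farthest from the median in rats, these p-values being the smallest that 100000 permutations can give. In mice their r was 0.91 (permutation adjusted p = 0.00146) and rho 0.88 (permutation adjusted p = 0.00374).

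The type I pair passed in mice and not in rats; the difference between species was not tested. Col1a1 and Col1a2 gave r 0.48 and rho 0.44 (permutation p = 0.0532 and 0.0737, adjusted p = 0.0798 and 0.111; r 0.65 without the 2 farthest libraries) in rats, which did not pass, and r 0.91 and rho 0.92 (permutation p = 0.0005 and 0.0014, adjusted p = 0.00146 and 0.00374; r 0.87 without the 2 farthest libraries) in mice. Col1a1 and Col3a1 gave r 0.58 and rho 0.60 (permutation p = 0.0174 and 0.0151, adjusted p = 0.0298 and 0.0259; r 0.66 without the 2 farthest libraries) in rats and r 0.65 and rho 0.51 (permutation p = 0.0746 and 0.193, adjusted p = 0.0995 and 0.232; r 0.61 without the 2 farthest libraries) in mice. Col5a1 and Col5a2 gave r 0.68 and rho 0.62 (permutation p = 0.0015 and 0.00631, adjusted p = 0.003 and 0.0126; r 0.66 without the 2 farthest libraries) in rats and r 0.35 and rho 0.34 (permutation p = 0.34 and 0.338, adjusted p = 0.371 and 0.369; r 0.64 without the 2 farthest libraries) in mice. Across classes, Col1a1 and Col4a1 gave r 0.39 and rho 0.41 (permutation p = 0.129 and 0.112, adjusted p = 0.155 and 0.149; r 0.53 without the 2 farthest libraries) in rats and r -0.20 and rho -0.20 (permutation p = 0.541 and 0.57, adjusted p = 0.541 and 0.57; r -0.39 without the 2 farthest libraries) in mice, neither passing. All libraries of a table share 1 normalization.

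**Figure D5:**
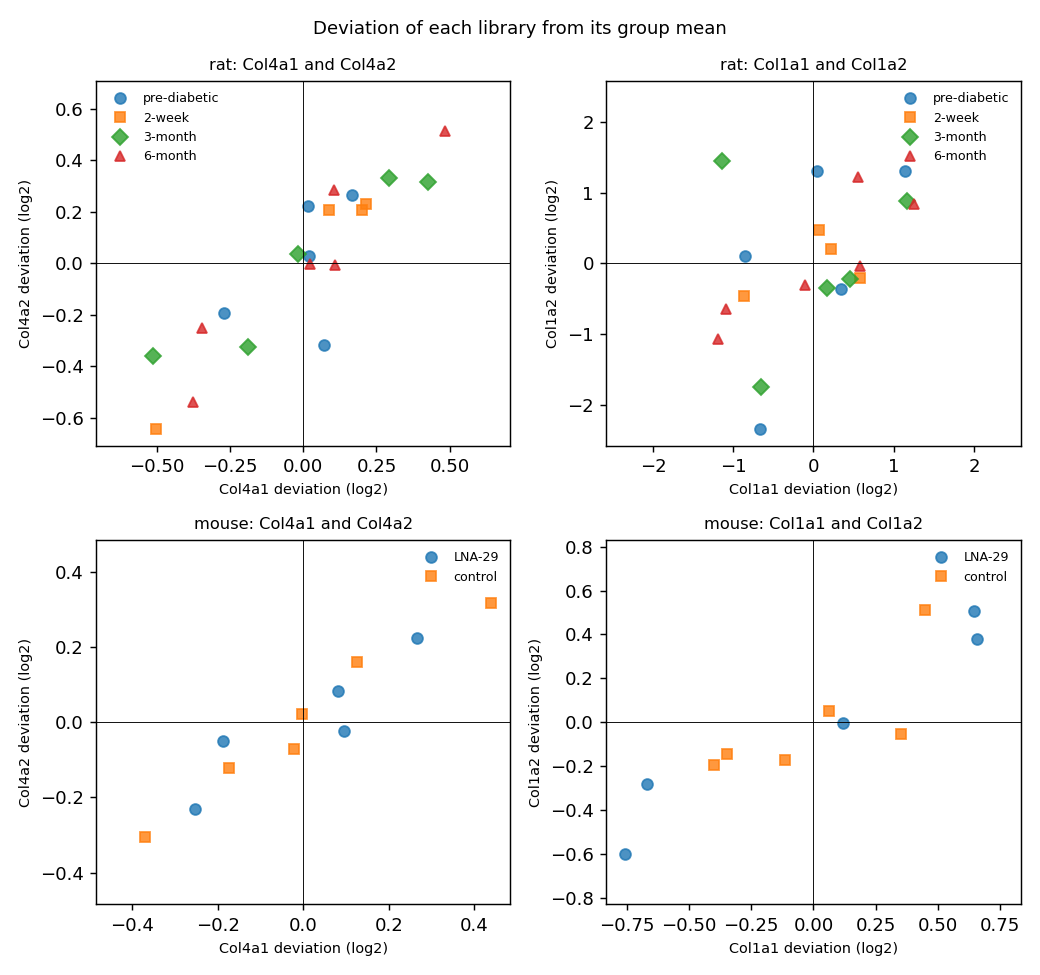
Deviation of each library from its group mean (log2) for Col4a1 against Col4a2 and Col1a1 against Col1a2, in rats (top) and mice (bottom), symbols giving the group. The type IV points lie along a line in both species (r 0.90 and 0.96), and the rat type I points scatter (r 0.48).

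For 6 rats, small RNA and polyadenylated RNA were sequenced; miR-29 and collagen are given for the same livers as values, with no test. The microRNA values are reads per 1000000 reads mapped to microRNAs (RPM). On this scale miR-29a-3p stood at 4041, 5419.8 and 5193.3 in pre-diabetic rats 1, 2 and 3, at 3909 and 4881 in 2-week rats 1 and 2, and at 5241.4 in 3-month rat 5. In the same order Col5a2 stood at 169, 156 and 190.3, at 336 and 231, and at 222 normalized counts. Col4a1 stood at 1219, 1139 and 1100.0, at 1586 and 962, and at 1256. The diabetic rats had the 3 highest Col5a2 values, and their miR-29a-3p values lay 1 below and 2 within the pre-diabetic range. The less abundant miR-29c-3p stood at 598, 804 and 789.5 RPM in the pre-diabetic rats, 568.4 and 706 in the 2-week rats and 751 in the 3-month rat. The scarcest, miR-29b-3p, averaged over its 3 table entries, stood at 15.8, 26.2 and 25.6 RPM in the pre-diabetic rats, 14.7 and 19.4 in the 2-week rats and 41.5 in the 3-month rat, which lay above the others. With 6 animals in 3 stages no relation within a stage could be tested.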

How the data were processed

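Polyadenylated RNA from 20 rat and 11 mouse livers and small RNA from 6 of the same rats were used, of 84 libraries in the series. The authors deposited 1 table of normalized counts per species, a scaled read signal per gene. Its values under 15 lay within 0.05 of whole multiples of 1 step for only 76.5 to 89.3% of rat and 60.0 to 72.5% of mouse values, so reads were not recovered and no count model was run. The authors deposited small RNA as reads per 1000000 reads mapped to microRNAs, written RPM here. These sum to 1000000 in each library, so the depth of the small RNA libraries is unknown. STAR, Salmon and DESeq2 and the builds mm9, rn6, hg19 and mm10 are named in the submitters' processing notes; which build belongs to which table, and which versions were run, is not given in the sources used. No column of sample values was left unmapped (0 columns).

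All groups of a table were fitted together with limma 3.58.1 (R 4.3.3, variance trend) on log2(normalized count + 1), for genes with a mean of at least 10, with Benjamini-Hochberg adjustment over all genes tested and a threshold of 0.05. The test was checked on simulated counts in which all genes had the same setting for the spread between libraries. That check does not cover genes that vary widely between animals, such as Col1a1 and Col1a2 in rats. Gene pairs were compared by permutation (100000, two-sided, within groups) with numpy 2.4.6 and pandas 2.3.3. Normalized values are relative to the rest of the library. Without counts, the precision of low genes rests on the spread between libraries, pooled over the groups of a table. Limma draws this spread toward a trend over all genes. The alternatives were a pseudocount of 8, no filter, median-of-ratios rescaling, no variance trend, the replicate number as a block, a fit of the 2 groups compared alone (rats) and omission of each library.

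The collagen genes and gene lists were chosen with earlier results of these data known. Values per animal are given for genes called in at least 1 of 7 comparisons and for Col1a1, Col1a2, Col3a1, Col4a1 and Col4a2; of the processing, receptor and marker lists up to 3 called genes per direction and comparison are named by smallest adjusted p, or the first 2 listed where none was called. Sequences are from RefSeq (GRCr8) tables.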

Additional observations from a re-analysis of the deposited data

Results flagged for a closer look

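In 78 sets of 4 to 6 animals of 1 group, 1 animal stood apart from the rest of its group (Dixon test, 95% critical value) in 8, and chance gives about 1 in 20. Col13a1 in 6-month rat 3 was 312 normalized counts, above the 265 to 279 of the others. Col14a1 in 6-month rat 1 was 1931 normalized counts, above the 852 to 1224 of the others. Col16a1 in 3-month rat 4 was 104 normalized counts, above the 70.2 to 79.1 of the others. Col22a1 in 2-week rat 2 was 10.4 normalized counts, above the 8.64 to 8.90 of the others. Col4a2 in 2-week rat 2 was 393 normalized counts, below the 709 to 721 of the others. Col5a1 in 6-month rat 6 was 288 normalized counts, below the 421 to 458 of the others. Col8a1 in 6-month rat 1 was 182 normalized counts, above the 102 to 131 of the others. Col1a2 in control mouse 6 was 614 normalized counts, above the 376 to 446 of the others. The rise of Col16a1 at 3 months was 0.97 without 3-month rat 4, and that of Col13a1 at 6 months was 0.68 without 6-month rat 3.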

How the results depend on the processing

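With each library left out in turn, the number of collagen genes called ranged from 5 to 10 at 3 months and from 3 to 10 at 6 months against pre-diabetic rats, from 0 to 1 for 6 months against 2 weeks, and from 0 to 6 with LNA-29. In the same order, calls over all genes ranged from 1449 to 2393, 1920 to 3573, 317 to 1717 and 120 to 540. Another pseudocount or rescaling left each collagen count within 1.5 times its value. The 2 groups fitted alone gave 1 call for 3 months against 2 weeks. With LNA-29, 3 genes were called without a variance trend; over all genes 355 were called, against 195 without the trend and 212 without the filter. The cause was not tested. With the replicate number as a block, 2 collagen genes (Col5a2 and Col4a5) and 70 of all genes were called with LNA-29, and 9 and 7 collagen genes at 3 and 6 months. Same-numbered animals' deviations correlated from -0.18 to 0.22, so the number was not taken as a pairing. Class medians over omissions ran from 0.014 to 0.31 for basement membrane genes at 3 months against 2 weeks, -0.21 to 0.027 for other collagens at 6 against 3 months, and, with LNA-29, 0.12 to 0.64 for basement membrane and -0.19 to 0.15 for other collagens. The 0.64 arose where Col4a6 dropped below the minimum and was no longer tested.

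The sign of uncalled type I differences turned with single libraries. At 2 weeks Col1a1 was -0.036 without pre-diabetic rat 5 and -0.015 without 2-week rat 4. At 3 months it was -0.025, -0.073 and -0.15 without pre-diabetic rat 4, pre-diabetic rat 5 and 3-month rat 4, and Col1a2 was -0.33 and -0.10 without pre-diabetic rat 4 and 3-month rat 1. At 6 months Col1a1 was 0.098 with the block and 0.15, 0.08 and 0.098 without pre-diabetic rat 3, 6-month rat 3 and 6-month rat 6. Over all omissions Col1a1 ran from -0.036 to 0.47 at 2 weeks, -0.15 to 0.42 at 3 months and -0.39 to 0.15 at 6 months, and Col1a2 from -0.33 to 0.70 at 3 months. Matches of the miR-29 seed in 3′ untranslated regions were not run.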

Other observations

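In the ratio of 1 chain to another within a liver the scaling of the library cancels, apart from the added pseudocount of 1. For 7 ratios, chosen after the values were seen, 21 two-sided exact permutation tests were run, and none passed an adjusted p of 0.05; the smallest adjusted value was 0.0682. The log2 ratio of Col3a1 to Col1a2 averaged 0.74 ± 0.37 in LNA-29 mice and -0.34 ± 0.52 in control mice (SD, n = 5 and 6; exact p = 0.00866, adjusted p = 0.0682). That of Col4a5 to Col4a4 averaged -0.82 ± 0.35 in 6-month rats and 0.039 ± 0.49 in pre-diabetic rats (n = 6 and 5; exact p = 0.00866, adjusted p = 0.0682), and 3.28 ± 0.59 in LNA-29 mice and 2.07 ± 0.69 in control mice (n = 5 and 6; exact p = 0.0195, adjusted p = 0.0818). The ratio of Col4a1 to Col4a2, which rose together, averaged 1.15 ± 0.12 in 3-month rats and 1.15 ± 0.23 in pre-diabetic rats (n = 5 each; exact p = 0.992), and 0.74 ± 0.094 in LNA-29 mice and 0.65 ± 0.073 in control mice (n = 5 and 6; exact p = 0.113). These ratios are of values not scaled to length, so only their differences between groups can be read.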
